A study of Arabidopsis thaliana with 12 samples.

Results

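The transcripts described here are the 85 probe sets, of 22746 on the ATH1 expression array, whose level in the knock-out line AB stood apart from that of all other genotypes measured beside it. They were chosen by their values: a mean over the 12 arrays of at least 3.5, an AB mean that differed from each of the COL, SIZ1 and SAB means by at least 0.5 in the same direction, and 3 AB values that all lay outside the range of the other 9. The minimum covers all 12 arrays, so a transcript could reach it through its AB values alone. All values are log2 expression values, so a difference of 1 is a doubling. Of the 85, 41 were higher in AB and 44 lower. Exactly 1 gene is named for 34 of them, several genes for 2, and 49 are unnamed here and are given by probe set ID. A further 7 probe sets met the numerical conditions and were left out by name or family: AT1G52100, AT4G07820, M17, the small heat shock gene AT2G29500, EXPB3, XTH16 and UGT72E2. Since the AB values chose the members, the differences between AB and the other genotypes are a description and carry no test.

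RNA came from untreated Arabidopsis thaliana seedlings of Columbia background, 3 arrays per genotype. COL is the wild type; AB, SIZ1 and SAB are lines that the labels give as knock-outs by T-DNA insertion, with no further account of what AB and SAB stand for or how many loci each carries. No allele number or independent second line is given, so each genotype may rest on 1 line. An age, 10 days, is labelled for AB 1 and AB 2, where every other sample carries a harvest date instead. The stated aim was to learn how ubiquitin-like proteases affect transcription. Whether replicates were grown as separate cultures is unstated, so the p-values rest on a spread that could be technical.

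SUMO is a small protein that cells attach to other proteins, many of them nuclear, to change their activity or partners. In plants the E3 ligase SIZ1 promotes attachment, and SUMO proteases (the ubiquitin-like proteases of the study) mature SUMO and take it off its targets. Loss of SIZ1 in Arabidopsis is known for dwarfism and raised salicylic acid defence, and loss of SUMO proteases is known to affect growth and flowering.

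Of a list of 19 SUMO pathway loci, 5 were measured under their own name, and none of these is a member. The SUMO protease AT1G09730 (SPF1) was the single locus of the list called in AB against COL, at 3.17 ± 0.33 (SD, n = 3) in AB, 4.76 ± 0.03 in COL, 4.29 ± 0.07 in SIZ1 and 3.23 ± 0.09 in SAB. It is no member because SAB lay as low as AB. The other 4 (SIZ1, SAE1A, ULP1B and AT4G33620) were not called between AB and COL. ULP1B averaged 2.55 in COL and 2.54 in AB, and AT4G33620 averaged 2.77 and 2.65. Both signals were already so dim in COL that a loss in AB could hardly register. For these proteases the missing call therefore does not show an intact transcript in AB. Over the whole array 14 probe sets (0.0615%) were called between AB and COL (limma, Benjamini-Hochberg adjusted p under 0.05), and 4 of the 85 members were among them, from which nothing is read because the rule used this contrast.

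The light-harvesting transcripts LHCB4.1 and LHCB4.2 were bright in every genotype, with means from 10.41 to 12.37, as in green tissue. The single measured root hair marker, EXPA7, stayed near the floor of the array, from 2.51 to 2.63, and no flower marker is measured under its own name. Seed maturation transcripts stood higher in AB: of a list of 22 loci, the mean of the 5 measured under their own name (PAP85, M17, AT2G28490, AT2G25890 and AT3G17520) ran from 3.84 to 4.68 over the AB arrays, against 2.54 to 3.33 in COL, 2.35 to 2.45 in SIZ1 and 2.45 to 2.76 in SAB, and no locus of it was called. All 5 are among the genes that the rule leaves out, and their part in the members' levels was not tested. Probe sets for RNA added during labelling averaged 4.67 ± 0.301 in AB, 4.45 ± 0.229 in COL, 4.04 ± 0.181 in SIZ1 and 4.24 ± 0.186 in SAB (SD, n = 3 arrays), and their part was not tested either. The RNA amount given in the labels averaged 739 ± 56.8 ng in AB, 751 ± 66.0 ng in COL, 727 ± 75.0 ng in SIZ1 and 871 ± 22.0 ng in SAB (SD, n = 3). The part of this amount was not tested. In bulk RNA, more cells of a type and more RNA per cell cannot be told apart.

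The name "changed only in AB" goes against the data for some members and was not shown for the others. SIZ1 and SAB were each compared with COL. The rule does not use this contrast itself, but it uses the same values. In SIZ1, 8 of the 85 were called (9.41%, against 3.22% of all probe sets), and the same 8 in SAB (9.41%, against 3.21%). Among probe sets with a mean of at least 3.5 the shares were 5.96% and 6.04%. All 8 lay on the other side of COL from AB, a direction that the rule in part sets, and nothing is read from the shares. With the replicate number as a block, 10 were called in SIZ1 (11.8%, against 5.13% of all probe sets) and 15 in SAB (17.6%, against 5.16%). That fit called 9.63% and 9.76% of the probe sets with a mean of at least 3.5. The 77 called in neither line without the block are not thereby shown to be unchanged. The set is therefore described as the transcripts that stand apart in AB.

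**Figure D1:**
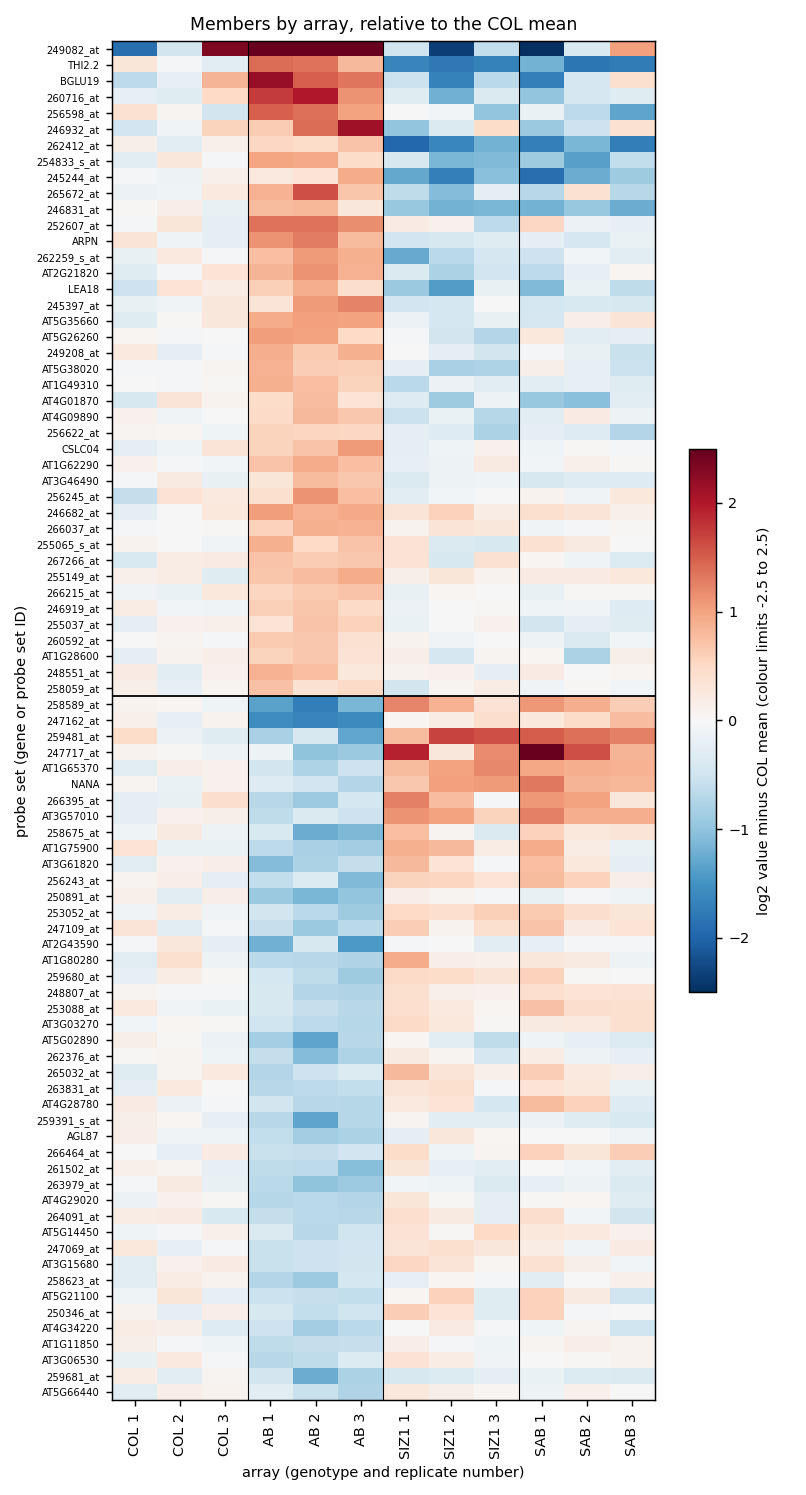
Colour gives the log2 value of each of the 85 members (rows, ordered by direction and size of the AB difference) on each of the 12 arrays (columns), minus the COL mean of that member; colours saturate at 2.5. The 3 AB columns are red in the upper 41 rows and blue in the lower 44, and several rows, such as THI2.2 and NANA, show the opposite colour in SIZ1 and SAB.

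Among the named members that were higher in AB, the thionin gene THI2.2 differed most. Thionins are small secreted peptides with antimicrobial activity. THI2.2 lay at 8.09, 8.05 and 7.52 in AB, at 7.01, 6.67 and 6.43 in COL, at 5.05, 4.92 and 5.01 in SIZ1 and at 5.51, 4.90 and 4.96 in SAB. COL thus stood between AB above and SIZ1 and SAB below, overlapping neither side. The AB mean was 4.86-fold the mean of the other 9 arrays, and its nearest value was 0.51 above the highest of them.

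BGLU19, which encodes a beta-glucosidase, lay at 6.68, 6.01 and 5.85 in AB, at 3.86, 4.31 and 5.36 in COL, at 3.98, 2.83 and 3.84 in SIZ1 and at 2.80, 4.09 and 4.92 in SAB. The AB arrays agreed more closely (SD 0.44) than the COL (0.77), SIZ1 (0.63) and SAB arrays (1.07). SAB overlapped COL and SIZ1 widely, while COL and SIZ1 overlapped each other narrowly. ARPN, which encodes plantacyanin, a blue copper protein of the cell wall and of the pollen path in the pistil, read 5.88, 6.03 and 5.55 in AB and between 4.27 and 5.08 in the other 9, a 2.44-fold difference of means.

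LEA18 encodes a late embryogenesis abundant protein, of the kind that protects cells during drying, and read 5.27, 5.59 and 5.11 in AB, 4.16, 5.03 and 4.87 in COL, 3.75, 3.29 and 4.50 in SIZ1 and 3.57, 4.52 and 4.05 in SAB. Its lowest AB value exceeded COL 2 by 0.08, and without COL 1 it is no longer a member. AT2G21820, annotated as a seed maturation protein, stood more clearly apart, at 4.54, 4.82 and 4.55 in AB and between 2.89 and 4.03 in the others. The mean of these others was 3.42, so AT2G21820 reached the minimum of 3.5 only through its AB arrays. The pair was picked out after the members were known. None of the 5 measured loci of the seed maturation list given above could be a member, since the rule leaves them out by name. M17, 1 of them, met the numerical conditions.

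Enzymes of the wall and of small molecules formed a further part of the upper group. CSLC04, a synthase of the xyloglucan backbone, read 5.33, 5.50 and 5.85 in AB and 4.53 to 5.10 elsewhere, with means of 4.78 ± 0.29 in COL, 4.70 ± 0.18 in SIZ1 and 4.74 ± 0.07 in SAB (SD, n = 3). AT5G38020, of the SABATH family of methyltransferases, read 5.44, 5.20 and 5.18 in AB and 3.77 to 4.72 elsewhere. For AT3G46490, an oxygenase of the 2-oxoglutarate type, the AB values were 3.88, 4.36 and 4.25 and the others 3.17 to 3.80. Without AB 2 this last gene no longer meets the rule.

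AT5G26260, which encodes a TRAF-like protein with a MATH domain, stood at 7.36, 7.31 and 6.81 in AB and between 5.58 and 6.58 in the other 9. AT5G35660 (4.52 to 4.62 in AB against 3.16 to 3.92) and AT1G49310 (5.98 to 6.30 against 4.74 to 5.44) had gaps of 0.60 and 0.54 between AB and the nearest other array. AT4G09890, with a domain of unknown function, averaged 6.17 ± 0.18 in AB (SD, n = 3) and 5.51 ± 0.09 in COL. AT4G01870, a tolB-related protein, had the narrowest gap of the named upper members, since AB 3 (10.41) exceeded COL 2 (10.39) by 0.02. The last 2 named members, AT1G62290 and AT1G28600, are described with their families below.

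**Figure D2:**
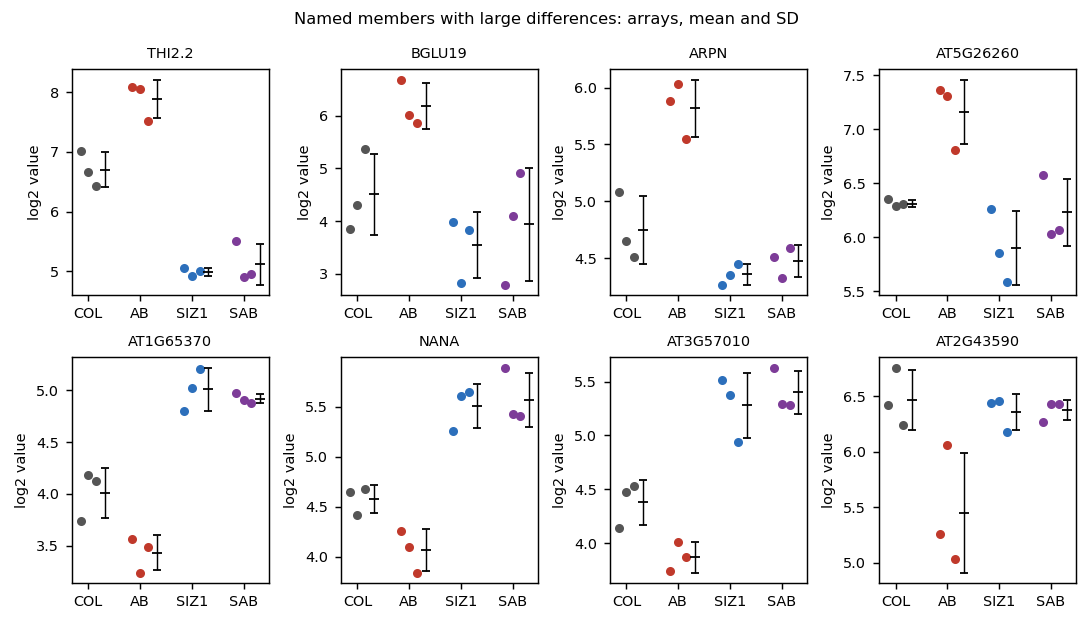
Log2 values of 8 named members on the 3 arrays of each genotype (points) with the mean and SD beside them. The upper row has AB above all other arrays; in the lower row AB is the lowest genotype, and for AT1G65370, NANA and AT3G57010 SIZ1 and SAB lie above COL.

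Among the unnamed members that were higher, 249082_at had the largest difference of the set, 3.73 from the mean of the other 9. It read 8.59, 7.53 and 7.98 in AB, but 3.0, 4.43 and 7.23 in COL, and its gap to COL 3 was 0.30. The probe sets 260716_at (5.17, 5.43 and 4.55 in AB, at most 3.93 elsewhere) and 256598_at (5.97, 5.85 and 5.48, at most 4.85 elsewhere) had gaps of 0.62 and 0.63. Over the other 9 arrays 260716_at averaged 3.03, so it reached the minimum of 3.5 only through AB. It was no longer a member without AB 1, AB 2 or AB 3. In 246932_at and 262412_at the difference of means was 1.60, with gaps of 0.08 and 0.31. Over all 41 the difference from the mean of the other 9 ran from 0.57 to 3.73 with a median of 0.97, and the gap from 0.02 to 0.64.

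In the lower group the named gene with the largest difference was AT1G65370, a second TRAF-like gene. It read 3.56, 3.24 and 3.49 in AB, 3.74, 4.18 and 4.12 in COL, 4.80, 5.02 and 5.21 in SIZ1 and 4.97, 4.91 and 4.88 in SAB. The AB and COL values came within 0.18 of each other, while both stood clear of SIZ1 and SAB. The 2 TRAF-like members thus lay on opposite sides in AB.

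AT3G57010, a strictosidine synthase-like gene, read 3.74, 4.01 and 3.87 in AB, 4.14, 4.48 and 4.53 in COL, 5.51, 5.38 and 4.94 in SIZ1 and 5.63, 5.29 and 5.28 in SAB. It no longer met the whole rule with quantile normalization, with median centring, or without AB 1, COL 2 or COL 3. AT2G43590, of the chitinase family, enzymes that cut the chitin of fungal walls, read 5.26, 6.06 and 5.03 in AB and 6.18 to 6.76 in the others. Its AB spread (SD 0.54) was the widest among the lower members, and AB 2 lay only 0.12 below SIZ1 3. THI2.2 was high in AB and this chitinase low.

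Other enzymes of the lower group were AT5G02890, an acyltransferase of the HXXXD type (3.37, 2.91 and 3.52 in AB, 3.59 to 4.36 elsewhere), AT1G80280, an alpha/beta hydrolase (3.63 to 3.70 against 4.11 to 5.31), and AT5G21100, an ascorbate oxidase (3.34 to 3.41 against 3.46 to 4.53). Within AB the arrays of AT1G80280 and AT5G21100 agreed closely (SD 0.04 and 0.03), while the other genotypes spread by SDs of 0.21 to 0.54. AT3G03270, of the universal stress protein family, averaged 4.23 ± 0.12 in AB and 4.85 ± 0.06 in COL (SD, n = 3).

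AGL87, a MADS-box gene, read 5.21, 4.95 and 5.02 in AB, with means of 5.82, 5.85 and 5.79 in COL, SIZ1 and SAB. AT4G29020, a glycine-rich protein, had 7.67, 7.72 and 7.66 in AB and 8.09 to 8.70 elsewhere. AT1G11850 read 3.96, 4.01 and 4.02 in AB and 4.49 to 4.76 elsewhere, so both its groups were tight. For these 3 genes neither SIZ1 nor SAB was called against COL, with differences between -0.08 and 0.10.

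The remaining named members of the lower group, apart from the enzyme families below, are AT4G34220, a kinase of the leucine-rich repeat receptor type (AB 3.14 to 3.49, others from 3.51), AT3G15680, a zinc finger protein (AB 3.97 to 4.07, others from 4.24), AT3G06530, with ARM repeats (AB 3.87 to 4.21, others from 4.37), and AT5G66440 (AB 4.74 to 5.22, others from 5.24). AT5G66440, where AB 1 lay 0.02 below COL 1, shares the narrowest gap of the named members with AT4G28780 and AT4G01870. AT3G15680 no longer met the whole rule with quantile normalization, with median centring, or without AB 1, COL 2 or COL 3. AT4G34220 stopped meeting it with median centring, or without AB 2, SAB 1 or SAB 2.

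Among the unnamed lower members, 247162_at had the widest gap of the whole set. It read 5.60, 5.51 and 5.56 in AB and 6.96 to 7.94 in the other 9, a gap of 1.36. For 258589_at the AB values were 5.77, 5.38 and 5.96, COL lay at 7.01 to 7.19 and SIZ1 and SAB at 7.48 to 8.33, a gap of 1.05. The probe sets 259481_at, 247717_at and 266395_at followed by size, and for each of them COL lay between AB and the means of SIZ1 and SAB. In 247717_at AB 1 and COL 3 both read 3.73. Over the 44 the difference from the mean of the other 9 ran from -1.97 to -0.58 with a median of -0.79.

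A pair of enzyme families has more than 2 named members, a grouping made after the members were known. GDSL-type lipases, secreted esterases that act on wall and surface lipids among others, gave 4 members, 3 lower in AB and 1 higher. AT1G75900 read 4.28, 4.12 and 4.07 in AB, 5.27, 4.76 and 4.77 in COL, 5.82, 5.74 and 5.11 in SIZ1 and 5.86, 5.12 and 4.77 in SAB. AT4G28780 read 3.70, 3.46 and 3.44 in AB and 3.72 to 4.96 elsewhere, and AT5G14450 3.44, 3.11 and 3.31 against 3.69 to 4.30. AT1G28600 went the other way, with 7.32, 7.45 and 7.13 in AB and 5.98 to 6.93 elsewhere.

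Aspartyl proteases, which cut proteins with a pair of acidic residues, gave 3 members, 2 lower and 1 higher. NANA, known as a chloroplast protease, read 4.26, 4.10 and 3.84 in AB, 4.65, 4.42 and 4.68 in COL, 5.26, 5.61 and 5.65 in SIZ1 and 5.89, 5.43 and 5.41 in SAB. AT3G61820 read 3.42, 3.71 and 3.91 in AB, 4.25, 4.62 and 4.67 in COL, 5.33, 4.86 and 4.49 in SIZ1 and 5.27, 4.78 and 4.29 in SAB. AT1G62290, of the vacuolar type with a saposin-like insert, read 6.69, 6.91 and 6.73 in AB and 5.77 to 6.21 in the others, with means of 5.98, 5.95 and 6.01 in COL, SIZ1 and SAB. No call separated COL, SIZ1 and SAB for any of the 7 genes of these families but NANA. AT4G28780, AT5G14450 and NANA no longer met the whole rule with quantile normalization or with median centring. NANA also failed the rule without AB 3, COL 1 or COL 3, and AT5G14450 without AB 2 or COL 3. AT1G28600 stopped meeting it without AB 2, COL 1, SAB 2 or SIZ1 2.

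**Figure D3:**
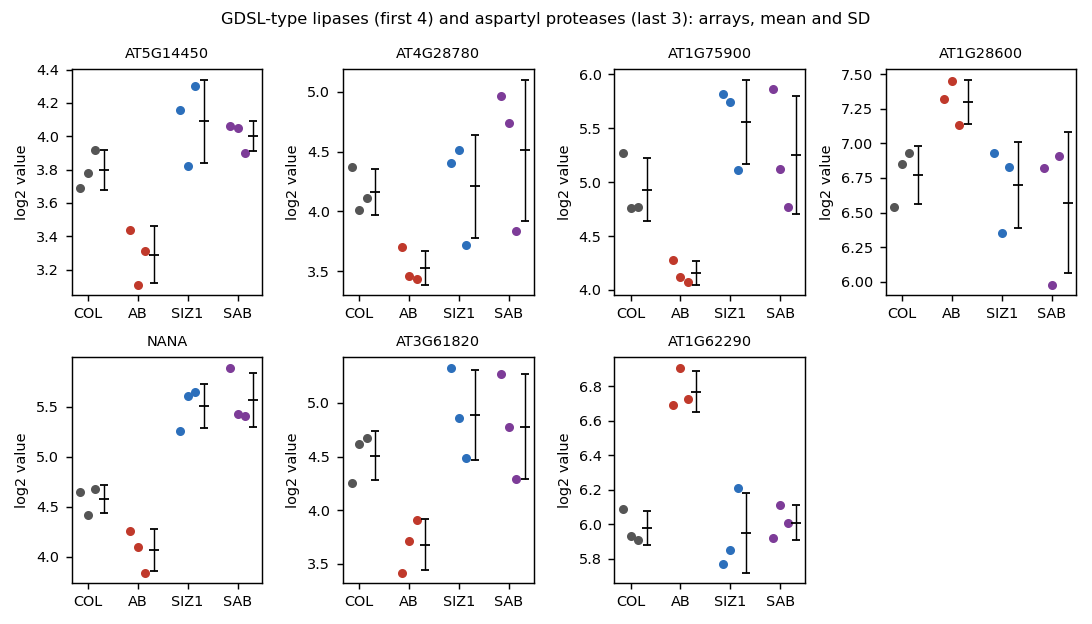
Log2 values of the 4 GDSL-type lipases (AT5G14450, AT4G28780, AT1G75900, AT1G28600) and the 3 aspartyl proteases (NANA, AT3G61820, AT1G62290) on the 3 arrays of each genotype (points), with the mean and SD beside them. AB is lowest in 5 of the panels and highest for AT1G28600 and AT1G62290.

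SIZ1 was then compared with COL over the members, to ask where the AB transcripts stand in the ligase line. Of the 41 members higher in AB, 4 fell in SIZ1 and 0 rose. Of the 44 lower in AB, 4 rose in SIZ1 and 0 fell. These 8 make 9.41% of the members, against 3.22% of all probe sets (1.93% higher, 1.29% lower) and 5.96% of those with a mean of at least 3.5, the level that the rule demands. Nothing particular to the members is read from these shares. A member higher in AB must also exceed SIZ1 and SAB, so a transcript raised as far in those lines as in AB could not be a member, and the opposite direction of the 8 calls is in part set by the rule.

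THI2.2 fell by 1.71 in SIZ1 (SE 0.21, 3.28-fold, limma adjusted p = 0.00412). The unnamed 262412_at changed by -1.60, 245244_at by -1.34 and 246831_at by -1.09 (limma adjusted p = 0.00605, 0.0316 and 0.00705). AT1G65370 rose by 1.0, NANA by 0.93 and AT3G57010 by 0.90 (limma adjusted p = 0.00666, 0.0181 and 0.0229), and the unnamed 259481_at rose by 1.36 (0.0439). In each of the 8, the SIZ1 and COL values did not overlap.

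SAB, in which both the SIZ1 signal (2.52 against 5.50 in COL) and that of AT1G09730 were low, was compared with COL in the same way, with the same COL arrays. Again 4 of the upper members fell and 4 of the lower rose, 9.41% of the members against 3.21% of all probe sets (1.66% higher, 1.56% lower) and 6.04% of those with a mean of at least 3.5. The sizes lay close to those in SIZ1: THI2.2 changed by -1.58, 262412_at by -1.53, 245244_at by -1.33, 246831_at by -1.12, AT1G65370 by 0.91, NANA by 0.99, AT3G57010 by 1.02 and 259481_at by 1.37 (limma adjusted p from 0.00565 to 0.0436). Both sets of differences share the COL arrays, so they are not independent of each other. The limit given for the p-values in SIZ1 holds for those in SAB as well.

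The median of SIZ1 minus COL was -0.31 over the 41 upper members and 0.22 over the 44 lower ones, against -0.012 over the 11416 probe sets with a mean of at least 3.5. For SAB minus COL the medians were -0.26 and 0.19, against -0.041. The COL mean lay between the AB mean and both other means in 30 of the 41 and 29 of the 44. The rule treats COL, SIZ1 and SAB alike, but it leaves out transcripts in which SIZ1 or SAB came near AB. How far it sets this order was not tested, and nothing is read from it.

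**Figure D4:**
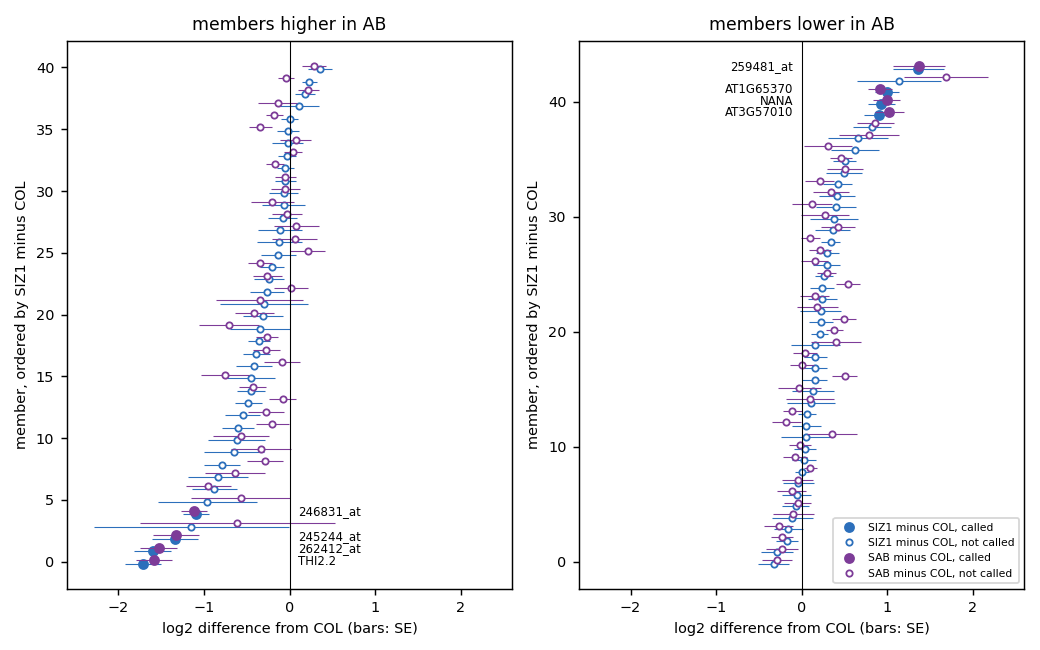
Log2 difference of SIZ1 (blue) and SAB (purple) from COL for the 41 members higher in AB (left) and the 44 lower (right), ordered by the SIZ1 difference; bars are limma's SE and filled points are called. The named probe sets are the 8 that were called in both lines, 4 below COL on the left and 4 above COL on the right.

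SAB and SIZ1 were also compared directly. No member was called, nor was any probe set (0%, limma). At an unadjusted p under 0.05 (limma) there were 5 members (5.88%), against 981 of all probe sets (4.31%). Among the 11416 probe sets with a mean of at least 3.5 there were 632 (5.54%), near the share of the members. The differences of the members ran from -0.36 to 0.54, with medians of 0.05 in the upper and -0.02 in the lower group.

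How these calls depend on single arrays was examined for each gene. Without COL 1, COL 2 or SIZ1 2, the members called in SIZ1 numbered 5, 4 and 4, of which 4 were among the 8 each time. The call of NANA in SIZ1 ended without any of these (limma adjusted p up to 0.0736). That of AT3G57010 ended without these or SIZ1 1 (up to 0.0873), and in SAB without COL 1 (0.0526). The calls of 245244_at ended in SIZ1 without AB 2, any COL array, SAB 2, SIZ1 1 or SIZ1 2 (up to 0.111) and in SAB without AB 2, any COL array, SAB 1 or SAB 2 (up to 0.0972). Those of 259481_at ended in SIZ1 without AB 1, any COL array, any SAB array, SIZ1 2 or SIZ1 3 (up to 0.147) and in SAB without AB 1, COL 2, COL 3, any SAB array or SIZ1 2 (up to 0.114). The calls of THI2.2, 262412_at, 246831_at and AT1G65370 passed in both lines whichever array was left out. With the replicate block, 7 of the 10 members called in SIZ1 and 8 of the 15 in SAB were among the 8, and 259481_at was no longer called in SIZ1 (limma adjusted p = 0.0514). Among probe sets with a mean of at least 3.5 that fit called 9.63% in SIZ1 and 9.76% in SAB. The members gained in SAB were 255037_at and 256598_at, lower, and 247109_at, 247717_at, 248807_at, 253088_at and 256243_at, higher; in SIZ1 they were 262259_s_at, lower, and 247109_at and 253088_at, higher.

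Arrays with the same replicate number moved together in several members. In 246932_at, array 3 was the highest and array 1 the lowest of each genotype: 5.51, 6.26 and 6.99 in AB, 4.39, 4.79 and 5.43 in COL, 3.89, 4.50 and 5.33 in SIZ1 and 3.95, 4.35 and 5.25 in SAB. The gap between all AB arrays and all others was 0.08, while within a number AB exceeded each other genotype by at least 1.13. In THI2.2 the smallest difference within a number was 1.08, and in BGLU19 it was 0.49, between AB 3 and COL 3. The same number was highest in all 4 genotypes for 16 members, in 13 of them number 1.

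**Figure D5:**
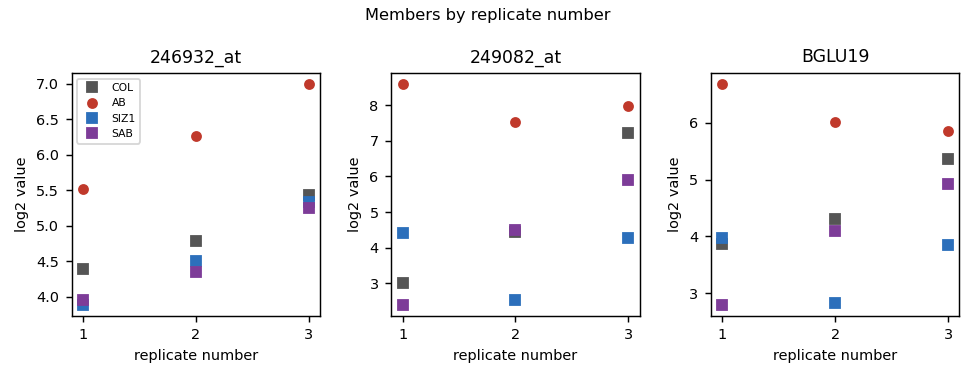
Log2 values of 246932_at, 249082_at and BGLU19 by replicate number, 1 point per array, with AB as circles and the other genotypes as squares. For 246932_at the points of each genotype are lowest at number 1 and highest at number 3, with AB above the rest; for 249082_at and BGLU19 the COL and SAB points at number 3 come nearest to AB.

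The AB arrays did not contribute evenly. AB 1 was the AB array nearest to the others in 42 members, AB 3 in 31 and AB 2 in 12. In the upper group AB 3 was nearest in 19, AB 1 in 15 and AB 2 in 7. In the lower group AB 1 was nearest in 27, AB 3 in 12 and AB 2 in 5. AB 3 is labelled with a date rather than an age, and the part of this label difference was not tested. Among the other genotypes, the array nearest to AB was a COL array in 54 members, a SIZ1 array in 17 and a SAB array in 14. Within AB the SD of a member ran from 0.03 to 0.74, with a median of 0.18.

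The limits of the rule cut through a continuous range. Just inside the 0.5 limit lay 255065_s_at (0.501) and 245244_at (0.505) in the upper group and 259681_at (-0.503) and 250346_at (-0.505) in the lower, by the smallest of their 3 differences. Just outside lay AT3G27880 (0.496) and 252502_at (0.490), and AT3G54400 (-0.498) and 247086_at (-0.494). Without AB 1 there were 65 upper and 71 lower members, without AB 2 41 and 54, and without AB 3 78 and 70. Those without AB 2 included 33 of the 41 and 37 of the 44. Leaving out an array can only loosen the condition on the range of values. A narrow gap therefore cannot end membership in this check, and only the limits on the means can. Of the 85, 50 remained members whichever array was left out, 26 of them upper and 24 lower. THI2.2, BGLU19, ARPN, AT2G21820, CSLC04, AT5G26260, AT1G62290, AT1G75900, AT3G61820, AT2G43590, AGL87 and AT4G29020 were among these, and AT1G65370 was not, since it stopped meeting the rule without AB 2.

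The same numerical conditions, with nothing left out, gave 92 probe sets for AB, 32 for COL (16 higher and 16 lower), 5 for SIZ1 and 8 for SAB. SIZ1 and SAB both lack SIZ1 signal, and a transcript that both share cannot stand apart in either, so the counts do not rank the lines. The 34 named loci lie on all 5 nuclear chromosomes, 8, 4, 9, 5 and 8 in order. None lies within 10 protein-coding genes of another, and no named member has a second probe set that names it alone.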

How the data were processed

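Expression was measured on Affymetrix ATH1 arrays. The authors deposited 1 log2 value for each probe set and array, for which the submitters' processing notes name GCRMA, with no version, and the log2 scale was read from the range, 2.02 to 13.21. GCRMA corrects background by probe sequence, normalizes between arrays and draws dim probe sets to a floor, so low changes are understated. The values were used as deposited, without 64 control probe sets. The number of arrays limits the precision.

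Names came from the platform's annotation, updated through RefSeq (TAIR10.1): 13513 probe sets name 1 gene, 503 several, 8730 none here. Exclusions by family could be applied to named probe sets only. With limma 3.58.1, genotype was modelled over all 12 arrays and 22746 probe sets in R 4.3.3 (8 residual and 1.31 prior degrees of freedom), two-sided, with Benjamini-Hochberg adjustment, and tested on simulated data. SE is limma's moderated error. All members naming 1 gene were to be named, with members called in another contrast, those next to the limit, and up to 5 unnamed ones in each direction; other unnamed probe sets were chosen after their values were seen. Members and lists were chosen with earlier results of these data known.

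Same-numbered arrays deviated together from their genotype means (correlations 0.102 to 0.451 in 18 pairs, median 0.257, against a median of -0.125 in 36 other pairs). Deviations from a genotype mean cancel over its arrays, so the 2 medians are not independent of each other. The numbers in the sample names were therefore taken as a possible pairing. The main fit and its calls ignored it, and only the replicate block used it. Alternatives were quantile normalization, median centring, other limits of the rule, the brighter probe sets alone, the replicate block, the 2 groups compared alone, and each array left out.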

Additional observations from a re-analysis of the deposited data

How the results depend on the processing

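The number of members moved with the limits of the rule and with single arrays. With a minimum mean of 5 there were 22 higher and 19 lower members, with a difference of at least 0.7 there were 19 and 12, and with 0.4 the lower members came to 86. With 1 array left out, the higher members numbered 41 to 78 and the lower 39 to 71. With quantile normalization there were 42 and 34, and with median centring 46 and 33. Members called in SIZ1 against COL numbered 4 to 9 and in SAB against COL 6 to 9 with 1 array left out, 12 and 13 with probe sets of a mean of at least 3.5 alone (8.46% and 8.58% of all tested there), 10 and 15 in the fit with a replicate block, which pairs same-numbered arrays (5.13% and 5.16%), and 2 and 4 in fits to the 2 groups compared alone, which have fewer arrays (0.576% and 1.01%). Among probe sets with a mean of at least 3.5 the block fit called 9.63% and 9.76%, and the 2-group fits 1.02% and 1.91%. In the 2-group fits the calls of AT1G65370 (limma adjusted p = 0.101) and 262412_at (0.0797) ended in SIZ1 and that of THI2.2 in SAB (0.0511). No member was called between SAB and SIZ1 under any of the 17 alternatives, and no call reversed its direction. Dim signal limits what can be said of members whose AB mean was under 3.5, such as AT1G65370 (3.43), AT5G21100 (3.38) and AT5G02890 (3.27). It also limits upper members that were as dim in other lines, such as AT2G21820 (mean 3.14 in SIZ1) and 260716_at (2.81 in SIZ1).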
